A study of Mus musculus with 32 samples.

Results

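The chemokine ligand genes Cxcl1, Cxcl2, Cxcl5 and Ccl20 were followed in whole mouse lung. They are 4 of the 26305 genes that the deposited table lists under an Ensembl identifier, and all 4 passed a minimum mean of 0.1 FPKM, as 2749 genes did. The genes were chosen by symbol, as ligands that attract neutrophils (Cxcl1, Cxcl2 and Cxcl5) or cells of the mucosal immune system (Ccl20). Lungs came from 16 wild-type male C57BL/6J mice, 6 to 8 weeks old, in 4 groups of 4 separate animals. Rosoxacin mice received dust collected at Ground Zero into the nose, named WTCPM in the labels for World Trade Center particulate matter, and the quinolone antibiotic rosoxacin at 5 mg/kg into the peritoneum. Dexamethasone mice received the same dust and the synthetic glucocorticoid dexamethasone at 0.1 mg/kg by the same route. WTCPM mice received the dust and no drug, and control mice were healthy animals with neither dust nor drug. The labels name no mock instillation and no drug vehicle for any group, and the sources used here give neither the dust dose nor the time between exposure and tissue collection.

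Chemokines are small secreted proteins that bind receptors on leukocytes and steer their movement. CXCL1, CXCL2 and CXCL5 act on CXCR2, the main receptor that draws mouse neutrophils out of blood into inflamed lung. CXCL1 and CXCL2 are made quickly by macrophages, epithelium and other cells after inflammatory stimuli, and CXCL5 in mouse lung is known mainly as an epithelial product. CCL20 is the ligand of CCR6 and attracts dendritic cells, B cells and T cells that make interleukin 17. Transcription of these genes is known to be driven by the NF-kB family, and glucocorticoids are known to lower the output of many inflammatory chemokine genes.

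The 3 neutrophil ligands lie in one cluster on chromosome 5 of the mm10 build, all on the plus strand. In GENCODE M21, Cxcl5 (ENSMUSG00000029371.7) spans 90759360 to 90761624, Cxcl1 (ENSMUSG00000029380.11) spans 90891241 to 90893115, and Cxcl2 (ENSMUSG00000058427.10) spans 90903871 to 90905938. Ccl20 (ENSMUSG00000026166.14) lies on the plus strand of chromosome 1 at 83116766 to 83119167. All 4 genes are annotated as protein coding, which does not say which of their transcripts was measured. Cxcl1 and Cxcl2 are close paralogs, so reads that match both could have been given to either, and their levels are uncertain to that extent.

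Promoter sequences are shown because these ligands are textbook NF-kB targets and because Cxcl1 and Cxcl2 share a run of letters there. Likeness of the remaining letters was not measured. RefSeq promoters on GRCm38.p6 were found for 3 of the 4 genes, Cxcl1, Cxcl2 and Ccl20. Each printed stretch runs 5′ to 3′ on the plus strand through 190 to 31 bases before the RefSeq start, and covers chr5:90891055-90891214 for Cxcl1, chr5:90903709-90903868 for Cxcl2 and chr1:83116576-83116735 for Ccl20. Capitals mark matches to the NF-kB consensus.
Cxcl1: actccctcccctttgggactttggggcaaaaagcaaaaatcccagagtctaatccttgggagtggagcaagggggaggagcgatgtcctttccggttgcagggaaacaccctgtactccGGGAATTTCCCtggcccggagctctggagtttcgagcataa
Cxcl2: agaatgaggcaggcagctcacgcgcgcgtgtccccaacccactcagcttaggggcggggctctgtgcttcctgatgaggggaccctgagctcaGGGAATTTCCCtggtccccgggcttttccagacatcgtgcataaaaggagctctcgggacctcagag
Ccl20: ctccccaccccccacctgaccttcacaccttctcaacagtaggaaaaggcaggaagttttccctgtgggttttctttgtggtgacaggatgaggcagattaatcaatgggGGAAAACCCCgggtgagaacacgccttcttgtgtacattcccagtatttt

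Cxcl1 and Cxcl2 hold the same run of 11 capitals, which contains the letters GGGAATTTCC, 71 to 62 bases before the start in Cxcl1 and 97 to 88 bases before it in Cxcl2. These distances depend on the start used. The RefSeq starts are 90891245 for Cxcl1 and 90903899 for Cxcl2, and the latter lies farther from its GENCODE start than the former does. The run matches the consensus on both strands, and the 2 matches overlap. Ccl20 lacks these letters in its window and has 1 consensus match, on the minus strand, 80 to 71 bases before its start. On either strand, GGGAATTTCC occurs in 29 of 32851 RefSeq promoter windows (0.0883%), and the consensus occurs in 2779 (8.46%). The letters GGGAATTTCC were read from the Cxcl1 window before they were counted, and the 29 windows include those of Cxcl1 and Cxcl2. Each window runs from 250 bases before to 50 after a start. The AP-1 letters TGANTCA, which 7.81% of windows hold, occur in none of these 3. These matches describe letters and no binding was measured.

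Expression is given as FPKM, which relates the fragments of a transcript to its length and to the size of the library, for 186512 transcripts in 32 libraries, 2 lanes per mouse. A mouse's FPKM summed to between 704683 and 1329954. Assembled loci with no gene name hold 99.886% of this total and genes under an Ensembl identifier 0.114%, and the files do not say which loci hold further transcripts of the 4 ligands. Read counts per library are unknown here. The size of 1 step was estimated in genes with 1 exon and 1 transcript, of which 2197 to 2714 were above 0 in a library. In each library 302 to 452 of these values lay at 1, 2 or 4 steps within 0.004 of a step, and the step was 0.0357 to 0.0574 FPKM for a transcript of 1 kb. If a read pair makes 2 steps, this corresponds to an estimated 8720000 to 14000000 fragments per lane. The labelled tissue could not be checked on its usual defining genes, because none of the 9 alveolar epithelium markers and 1 of 12 airway epithelium markers (Spdef) has an own identifier in the table. Rosoxacin mice carry the 4 lowest library numbers, the number after the letter S in the labels, so drug and library number cannot be told apart.

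All 4 ligands were at low FPKM. Averaged over the 16 mice, Cxcl2 stood at 0.360 FPKM, Cxcl1 at 0.333, Ccl20 at 0.315 and Cxcl5 at 0.182. They rank 691, 787, 851 and 1653 among the annotated genes, within the upper 14% of those above 0. With a between-mouse SD within groups of 0.118 to 0.171 FPKM, the means of Cxcl2, Cxcl1 and Ccl20 lie closer together than the mice of a group do.

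**Figure D1:**
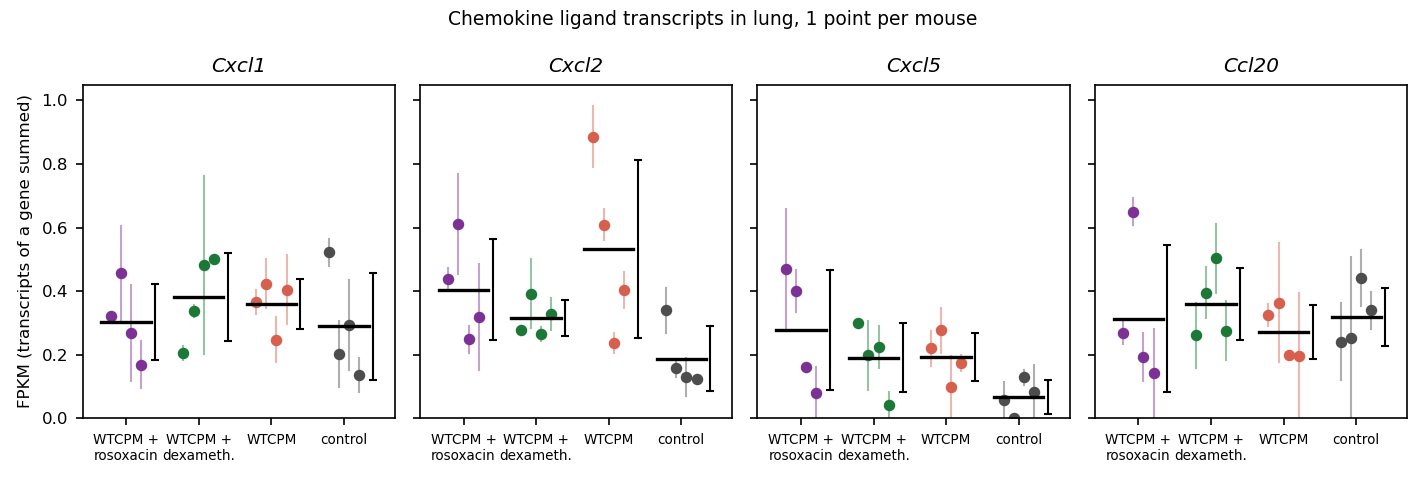
FPKM of the 4 chemokine ligand genes in lung, 1 point per mouse (mean of 2 lanes, with a thin line joining the lanes), in 4 groups of 4 mice. The horizontal bar is the group mean and the black bracket its SD. Cxcl2 has 3 of 4 WTCPM mice above all control mice, and no gene separates any pair of groups.

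Cxcl1, the neutrophil attractant also called KC, varied as widely within groups as between them. Its FPKM was 0.320, 0.456, 0.269 and 0.169 in rosoxacin mice, and 0.205, 0.338, 0.483 and 0.5001 in dexamethasone mice. WTCPM mice had 0.365, 0.423, 0.247 and 0.404, and control mice had 0.522, 0.203, 0.294 and 0.137. The highest single value was a control mouse and every pair of groups overlapped. Means were 0.303 ± 0.119 in rosoxacin, 0.382 ± 0.138 in dexamethasone, 0.360 ± 0.0788 in WTCPM and 0.289 ± 0.168 in control mice (SD, n = 4 each). The order of levels, high to low, was dexamethasone, WTCPM, rosoxacin and control, with no neighbours apart by more than their spread. This order depended on the less abundant transcript of Cxcl1, which was above 0 in 8 of 32 libraries. In the most abundant transcript alone, WTCPM mice were highest (0.335 ± 0.0944 FPKM), then rosoxacin (0.303 ± 0.119) and dexamethasone mice (0.2298 ± 0.0848). Control mice were again lowest, and neighbours again lay within their spread.

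Cxcl2, which encodes the neutrophil attractant MIP-2, showed the widest range between groups of any of the 4 in FPKM. Rosoxacin mice had 0.440, 0.611, 0.248 and 0.317 FPKM, and dexamethasone mice had 0.277, 0.392, 0.265 and 0.328. WTCPM mice had 0.886, 0.610, 0.237 and 0.403, and control mice had 0.340, 0.158, 0.130 and 0.125. Control mice 2, 3 and 4 lay below every mouse of the other groups, while control mouse 1 lay among the treated mice and above WTCPM mouse 3. Means were 0.404 ± 0.159 in rosoxacin, 0.316 ± 0.0579 in dexamethasone, 0.534 ± 0.280 in WTCPM and 0.188 ± 0.102 in control mice. From high to low the order was WTCPM, rosoxacin, dexamethasone and control, each within the spread of its neighbour except the last step, where the means differ by more than either SD although the mice overlap. Dexamethasone mice were the most even of the groups.

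Cxcl5, the ligand known from lung epithelium, was the lowest of the 4 on average and the one with the most lanes listed at 0. Its FPKM was 0.471, 0.400, 0.160 and 0.0800 in rosoxacin mice, and 0.299, 0.198, 0.225 and 0.0414 in dexamethasone mice. WTCPM mice had 0.220, 0.277, 0.0982 and 0.174, and control mice had 0.0567, 0, 0.129 and 0.0836. In each of the 3 dust groups 1 of 8 lanes is listed at 0, against 4 of 8 in control mice, where mouse 2 is at 0 in both. Means were 0.278 ± 0.187 in rosoxacin, 0.191 ± 0.109 in dexamethasone and 0.192 ± 0.0758 in WTCPM mice, and control mice averaged 0.0673 over values between 0 and 0.129. From high to low the order was rosoxacin, WTCPM, dexamethasone and control, and the 3 dust groups lay within their spread. Each dust group overlapped with the control mice through its lowest mouse.

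Ccl20, the CCR6 ligand of mucosal surfaces, gave no order of groups that exceeded its spread. Rosoxacin mice had 0.268, 0.650, 0.193 and 0.141 FPKM, and dexamethasone mice had 0.261, 0.395, 0.504 and 0.276. WTCPM mice had 0.324, 0.364, 0.1998 and 0.197, and control mice had 0.241, 0.253, 0.440 and 0.339. Rosoxacin mouse 2 was the highest of all 16, and the other rosoxacin mice lay in the lower part of the range. Means were 0.313 ± 0.231 in rosoxacin, 0.359 ± 0.114 in dexamethasone, 0.271 ± 0.0855 in WTCPM and 0.319 ± 0.0921 in control mice.

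WTCPM against control sets mice given dust into the nose against mice with neither dust nor drug. With no mock instillation named, dust and instillation cannot be told apart. None of the 4 ligands passed an adjusted p of 0.05 by limma, and 1 of 4 had an unadjusted p under 0.05. Over all 2749 genes tested, 0 passed (0%) and 141 (5.13%) had an unadjusted p under 0.05. The mice of the groups overlapped for all 4 ligands, and did not overlap for 83 genes (3.02%). Differences are given as log2 changes of FPKM + 0.1, which understate the change of genes as low as these, and a positive value means higher in the group named first. Lung tissue was measured as a whole, so fewer cells making a ligand and less RNA per cell cannot be told apart. Of 6 adipocyte markers 2 were tested, and neither passed. Lep averaged 0.0118 FPKM in WTCPM and 0.438 ± 0.378 in control mice (log2 change -2.03, adjusted p = 0.131 by limma). Hcar1 averaged 0.100 ± 0.0277 and 0.447 ± 0.326 (log2 change -1.29, adjusted p = 0.324 by limma). Whether tissue content differed between these groups was not tested.

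Cxcl2 was the nearest to a call in WTCPM against control. Its mean was 0.534 FPKM in WTCPM mice and 0.188 in control mice, a log2 change of 1.09 (SE 0.32, 95% interval 0.41 to 1.76). The limma p was 0.00343 before and 0.356 after adjustment over all genes, which places it 26th of 2749 by p. Without each mouse in turn the change lay between 0.84 and 1.35, and 3 of 4 WTCPM mice were above every control mouse. Cxcl5 was at 0.83 (SE 0.40, interval -0.02 to 1.67, adjusted p = 0.894). For Cxcl1 the value was 0.32 (interval -0.34 to 0.97, adjusted p = 0.918), and it was 0.11 without control mouse 4 and 0.58 without control mouse 1. For Ccl20 the change was -0.18 (interval -0.84 to 0.48, adjusted p = 0.938), and it was positive in lane 2 alone (0.14) and in the most abundant transcript alone (0.83). The median change of the 4 ligands was 0.57, against 0.03 over all annotated genes tested.

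Rosoxacin against WTCPM sets dust with the antibiotic against dust with no drug. With no drug vehicle named, the antibiotic and its injection cannot be told apart. None of the 4 ligands passed by limma, and none had an unadjusted p under 0.05, while 15 of 2749 genes passed (0.546%) and 431 (15.7%) had an unadjusted p under 0.05. Both groups overlapped for all 4 ligands and did not overlap for 306 genes (11.1%). The log2 change of Cxcl2 was -0.27 (SE 0.32, interval -0.95 to 0.40, adjusted p = 0.721), with means of 0.404 FPKM in rosoxacin and 0.534 in WTCPM mice. It was -0.02 without WTCPM mouse 1 and -0.54 without WTCPM mouse 3. Cxcl1 was at -0.22 (interval -0.87 to 0.43). Cxcl5 was at 0.26 (interval -0.59 to 1.10) and Ccl20 at 0.04 (interval -0.62 to 0.70), but the sign turned with TPM scaling for both (-0.05 and -0.29). Other settings turned it for Ccl20 as well. The 4 ligands had a median change of -0.09. All annotated genes had a median of -0.16, which became -0.46 with TPM and -0.01 with median-of-ratios scaling. Under that last scaling, close to a change relative to the median gene, Cxcl1 was at -0.04, Cxcl2 at -0.08, Cxcl5 at 0.42 and Ccl20 at 0.21. Each of the 4 intervals reaches at least 0.40 to either side of 0, so changes of that size in either direction lie within the error at 4 mice a group.

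Dexamethasone against WTCPM sets dust with the glucocorticoid against dust with no drug, and here too drug and injection cannot be told apart. None of the 4 ligands passed by limma or had an unadjusted p under 0.05, and 0 of 2749 genes passed (0%), with 148 (5.38%) at an unadjusted p under 0.05. Both groups overlapped for all 4 ligands and did not overlap for 112 genes (4.07%). Cxcl2 had a log2 change of -0.51 (SE 0.32, interval -1.18 to 0.17, adjusted p = 0.951 by limma), which was -0.26 without WTCPM mouse 1 and -0.78 without WTCPM mouse 3. Its means were 0.316 FPKM in dexamethasone and 0.534 in WTCPM mice, and the dexamethasone mice lay between 0.265 and 0.392, inside the WTCPM range of 0.237 to 0.886. Ccl20 was at 0.30 (interval -0.36 to 0.97). Cxcl1 stood at 0.03 (interval -0.62 to 0.69), turning to -0.01 with TPM scaling. In its most abundant transcript alone, Cxcl1 was at -0.41 (SE 0.29, adjusted p = 0.933 by limma). Cxcl5 was at -0.06 (interval -0.91 to 0.78), turning to 0.02 with quantile normalisation. The median of the 4 ligands was -0.02, against 0.00 over all annotated genes.

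**Figure D2:**
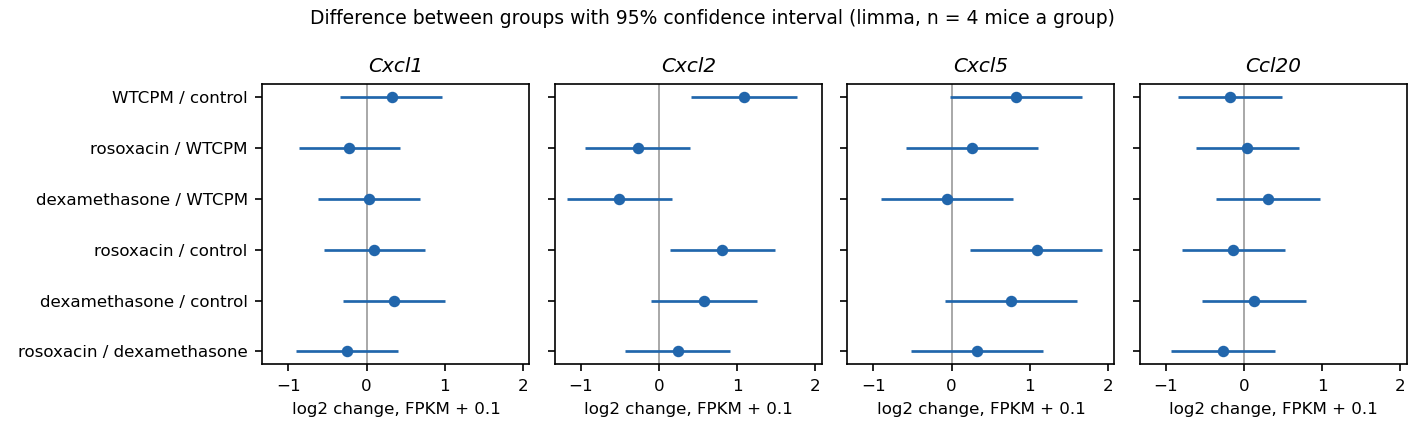
Log2 change of FPKM + 0.1 (x axis) for each of the 4 ligand genes in 6 comparisons between groups of 4 mice; points are limma estimates and lines 95% confidence intervals that are not adjusted for the number of genes. The intervals of Cxcl2 for WTCPM against control and rosoxacin against control, and of Cxcl5 for rosoxacin against control, lie above 0, and every other interval includes 0.

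The dust groups that also received a drug were set against control mice as well. These comparisons share the control mice with the first one, so they are no separate evidence for it. For rosoxacin against control, Cxcl5 was at 1.09 (SE 0.40, interval 0.24 to 1.93, adjusted p = 0.1396) and Cxcl2 at 0.81 (SE 0.32, interval 0.14 to 1.49, adjusted p = 0.165), by limma. None of the 4 ligands passed there, where 91 of 2749 genes did (3.31%), and 2 of 4 had an unadjusted p under 0.05, as 531 genes (19.3%) did. The groups overlapped for all 4 and did not overlap for 307 genes (11.2%). Cxcl1 was at 0.10, or -0.14 with TPM scaling. Ccl20 was at -0.14, and ranged from -0.93 to 0.80 over the settings, the highest being lane 2 alone. With the library number as a covariate, Cxcl5 was at 1.17 (SE 0.61, adjusted p = 0.521) and Cxcl2 at 0.68 (SE 0.48, adjusted p = 0.663). For dexamethasone against control, Cxcl5 was at 0.76, Cxcl2 at 0.58, Cxcl1 at 0.35 and Ccl20 at 0.13. Ccl20 was at -0.24 in lane 1 alone and at 1.03 in its most abundant transcript alone (SE 0.42, adjusted p = 0.993 by limma). None of the 4 ligands passed, against 1 of 2749 genes (0.0364%), and none had an unadjusted p under 0.05, against 137 genes (4.98%). These groups also overlapped for all 4 ligands and did not for 66 genes (2.4%).

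The 2 drug groups were also compared with each other. Rosoxacin against dexamethasone gave log2 changes of 0.32 for Cxcl5, 0.24 for Cxcl2, -0.25 for Cxcl1 and -0.27 for Ccl20. None of the 4 passed by limma, where 117 of 2749 genes did (4.26%), and none had an unadjusted p under 0.05, as 568 genes (20.7%) did. Both groups overlapped for all 4 ligands and did not overlap for 361 genes (13.1%). The sign of Cxcl2 turned with TPM scaling (-0.07), that of Ccl20 in lane 2 alone (0.05) and that of Cxcl1 in its most abundant transcript (0.28). Leaving out 1 mouse gave 0.01 to 0.63 for Cxcl5, 0.05 to 0.40 for Cxcl2, -0.46 to -0.07 for Cxcl1 and -0.60 to -0.05 for Ccl20.

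Each mouse's library was run on 2 lanes, and the difference between lanes shows how much a value moves with the animal held fixed. The median lane difference was 0.0982 FPKM for Cxcl2, 0.121 for Cxcl5, 0.144 for Cxcl1 and 0.180 for Ccl20. The error that lanes alone give to a mouse's mean was an SD of 0.0773 FPKM for Cxcl2, against 0.171 between mice within groups. For Cxcl5 it was 0.0761 against 0.118. For Cxcl1 it was 0.109 against 0.130 and for Ccl20 0.120 against 0.143. The spread between mice was taken from lane means and so already includes the lane error. For Cxcl1 and Ccl20 much of that spread can therefore be lane error and not a difference between animals. The largest lane difference was 0.558 FPKM, for Cxcl1 in dexamethasone mouse 3. For Ccl20, control mouse 2 was at 0.507 in lane 1 and listed at 0 in lane 2.

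**Figure D3:**
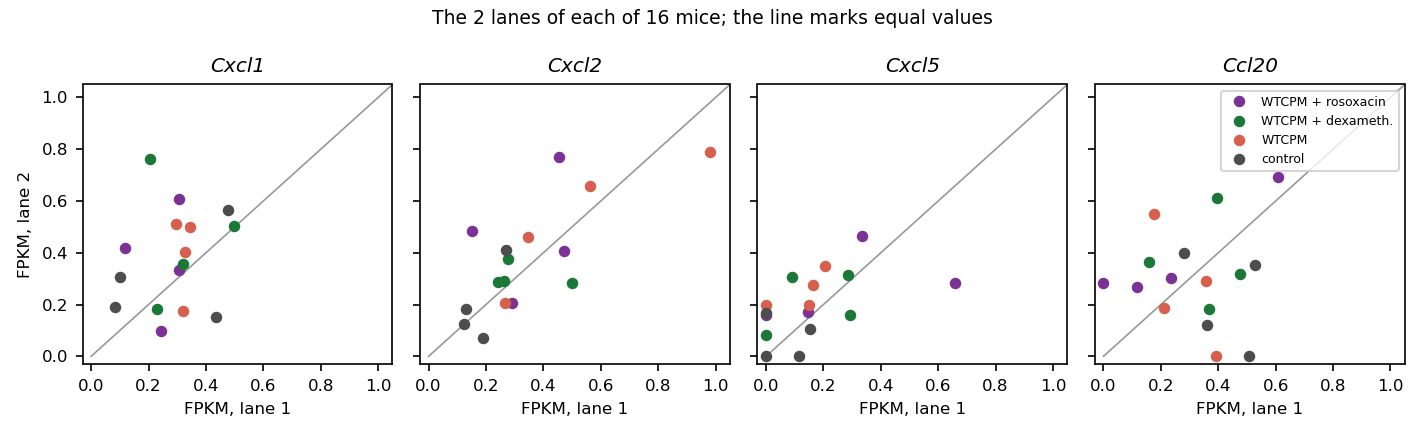
FPKM of each ligand gene in lane 1 (x axis) and lane 2 (y axis) of the same 16 mice, coloured by group; the line marks equal values. Cxcl2 lies closest to the line and Ccl20 scatters most, with median lane differences of 0.0982 and 0.180 FPKM.

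Each ligand has as many transcripts in the table as in GENCODE M21, and 1 of them carries most of the FPKM. The dominant transcript held 99.1% of Cxcl5, 96.7% of Cxcl2, 80.1% of Cxcl1 and 77.1% of Ccl20. The table gives no transcript names. Because values move in steps whose size depends on transcript length, the length of each annotated transcript was tried on the dominant one, for values under 15 steps and within 0.06 of a whole step, a window that covers 12% of all possible values. For Cxcl5, 15 of 23 values (65.2%) were whole at the length of its intron-retaining transcript, 1863 bases, and 4 of 24 (16.7%) at that of its coding transcript, 1575 bases. For Cxcl2, 9 of 17 (52.9%) were whole at the 2066 bases of an intron-retaining transcript and 3 of 29 (10.3%) at the 1109 bases of the main coding one. For Cxcl1 the shares were 30.8% for the intron-retaining transcript and 12.5% for the coding one. The levels and changes given for Cxcl5 and Cxcl2 may thus be those of intron-retaining transcripts and not of spliced coding RNA. Whether spliced RNA of these genes lies in the loci with no gene name was not tested. Ccl20 has coding transcripts only, and 10 of 24 values (41.7%) were whole at 1417 bases, against 1 of 26 (3.85%) at each of the other lengths, 794 and 772 bases.

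At these lengths the depth behind a value can be counted in steps. The dominant transcript of Cxcl2 had 71.4, 50.3, 18.3 and 35.9 steps over both lanes in WTCPM mice, and 32.9, 13.6, 14.9 and 9.94 in control mice. That of Cxcl5 had 16, 20.6, 6.86 and 13.9 steps in WTCPM mice, and 4.94, 0, 13.4 and 6 in control mice. Cxcl2 therefore rests on more fragments than Cxcl5 does, above all in the WTCPM mice. In control mice 2, 3 and 4 it rests on only 9.94 to 14.9 steps, so depth limits its change against control too. In control mice Cxcl1 had 29.7, 20.5, 12.7 and 9.88 steps at the length of its intron-retaining transcript. Ccl20 had 10.2, 0, 4.58 and 18.5 steps there.

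The choice of transcript mattered most for Ccl20. Its dominant transcript alone averaged 0.243 ± 0.192 FPKM in rosoxacin, 0.321 ± 0.0636 in dexamethasone and 0.271 ± 0.0855 in WTCPM mice (SD, n = 4 each), and 0.138 in control mice. WTCPM mice had 0.324, 0.364, 0.1998 and 0.197 FPKM of it, and control mice had 0.153, 0, 0.0581 and 0.339. The second transcript held 22.9% of Ccl20 and was above 0 in 7 of 32 libraries. On the dominant transcript the log2 change was 0.83 (SE 0.42, adjusted p = 0.890 by limma) for WTCPM against control, where the summed gene gave -0.18. This setting was added after the data had been seen.

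Whether the ligands varied together was read from 6 pairs over the 16 mice. The permutations shuffled mice with no regard to group, so their p-values also take in differences between groups. Cxcl2 and Cxcl5 had Pearson r = 0.57 (permutation p = 0.0211, adjusted over 6 pairs p = 0.0748) and Spearman rho = 0.56. Cxcl1 and Cxcl2 had r = 0.56 (permutation p = 0.0249, adjusted p = 0.0748) and rho = 0.59. Neither pair passed 0.05 after adjustment. Without the 2 mice farthest from the median of the first gene, r was 0.60 and 0.49, and with group means removed it was 0.35 and 0.60 for these pairs. Cxcl5 and Ccl20 had r = 0.43 (permutation p = 0.0978, adjusted p = 0.181), or 0.66 with group means removed. The other 3 pairs had r between 0.17 and 0.40 and adjusted p between 0.181 and 0.527 by permutation. Depth and library are shared by the genes of a mouse and can enter these values. Reads that match both Cxcl1 and Cxcl2 can also enter the value of that pair.

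The genes most like each ligand over the 16 mice were ranked by Pearson r of log2(FPKM + 0.1), as a description with no test. For Cxcl5 they were Acod1, which makes itaconate in activated macrophages, at r = 0.82, then Ccno at 0.76 and Mcidas at 0.75, both known from multiciliated cells, then Ddit4l at 0.69 and the acute-phase gene Saa1 at 0.68. For Cxcl2 they were Scn4b at 0.75, Cenpm at 0.73, Piwil2 at 0.70, C3ar1, the receptor of complement C3a, at 0.69, and Ccl4 at 0.69. For Cxcl1 they were B3gnt6 at 0.70, Igsf23 at 0.62, Ccl4 at 0.61, Mycn at 0.60 and Bves at 0.59. For Ccl20 they were Cfi and Trim9 at 0.66, Jph1 at 0.65, Mmp27 at 0.64 and Erich5 at 0.63. Ccl4, a chemokine that attracts macrophages and T cells, stands in the lists of both Cxcl1 and Cxcl2. Acod1 averaged 0.123 FPKM in rosoxacin, 0.188 in dexamethasone, 0.105 in WTCPM and 0.0122 in control mice.

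Receptors of the ligands were measured only in part. Of 23 chemokine receptor genes considered here 7 have an own identifier and 5 were tested, among them Cxcr2, the main receptor of the neutrophil ligands, and its relative Cxcr1. Cxcr2 averaged 0.854 ± 0.349 FPKM in rosoxacin, 1.13 ± 0.344 in dexamethasone, 0.516 ± 0.108 in WTCPM and 0.531 ± 0.255 in control mice. Its log2 change was 0.97 (SE 0.30, adjusted p = 0.631) for dexamethasone against WTCPM and 0.04 (adjusted p = 0.988) for WTCPM against control, by limma. The dexamethasone mice thus had the highest mean of this receptor while their Cxcl2 mean was below that of WTCPM mice, and neither difference passed. Cxcr1 averaged 0.392 ± 0.175 in rosoxacin, 0.511 ± 0.181 in dexamethasone, 0.447 ± 0.209 in WTCPM and 0.308 ± 0.0402 in control mice. Ccr4, Ccr8 and Xcr1, receptors of other chemokines, did not pass in any of the 6 comparisons either. Ccr3 and Ccr1l1 were below the filter. Ccr6, the receptor of CCL20, is not among the genes with an own identifier.

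Neutrophil markers bear on ligands that attract neutrophils. Of 17 such genes 7 have an own identifier and 3 were tested, Cxcr1, Cxcr2 and Asprv1. Asprv1, a protease gene also expressed in mouse neutrophils, averaged 0.323 ± 0.118 FPKM in rosoxacin, 0.644 ± 0.131 in dexamethasone, 0.273 ± 0.0404 in WTCPM and 0.179 ± 0.0362 in control mice. It was the 1 tested gene of the list that passed anywhere, higher in dexamethasone than in control mice (log2 change 1.41, SE 0.23, adjusted p = 0.0247) and lower in rosoxacin than in dexamethasone mice (-0.84, adjusted p = 0.0478), by limma. These calls held in 11 of 17 and 6 of 17 other settings, and in 10 of 16 and 2 of 16 fits without 1 mouse. For dexamethasone against WTCPM the change of Asprv1 was 0.98 (adjusted p = 0.391). Mpo is listed at 0 in all mice, and Ly6g, Elane and Stfa2l1 had group means under 0.1 FPKM. The defining granule genes S100a8 and S100a9 have no own identifier, and the part of neutrophil number in the ligand values was not tested.

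**Figure D4:**
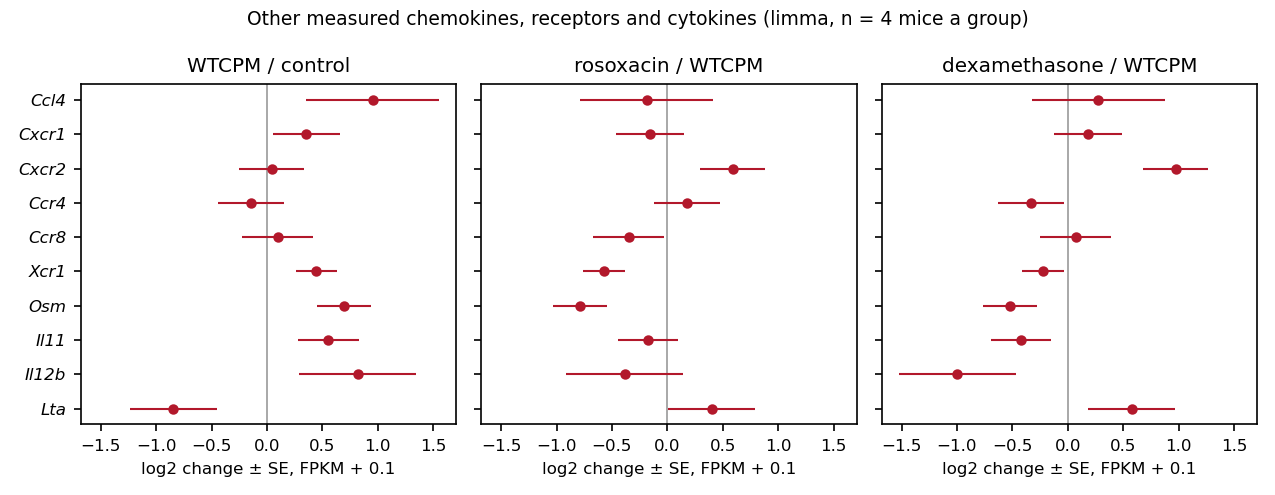
Log2 change of FPKM + 0.1 with its SE (limma, 4 mice a group) for 10 other chemokine, receptor and cytokine genes in 3 comparisons. For WTCPM against control, Lta and Ccr4 lie left of 0 and the other 8 genes right of it, Cxcr2 lies farthest right for dexamethasone against WTCPM, and none passed the adjusted threshold in these comparisons.

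Other ligands and cytokines that induce the 4 genes were as sparse. Of 15 CXC ligands only Cxcl1, Cxcl2, Cxcl3 and Cxcl5 have an own identifier, and Cxcl3, the third close paralog of the cluster, was below the filter. Cxcl3 averaged 0.0797 FPKM in rosoxacin, 0.102 in dexamethasone, 0.106 in WTCPM and 0.0119 in control mice, with the WTCPM mice between 0.0192 and 0.204 and the control mice between 0 and 0.0284. Of 23 CC, XC and CX3C ligands 4 have an identifier, and Ccl4 was tested beside Ccl20, at 0.212 ± 0.149 in WTCPM and 0.0724 in control mice, which ranged between 0 and 0.290 (log2 change 0.95, SE 0.60, adjusted p = 0.894). Of 22 inducing cytokines 4 were tested, Osm, Il11, Il12b and Lta, and none passed in any of the 6 comparisons. Osm, the cytokine oncostatin M, had log2 changes of 0.70 for WTCPM against control (SE 0.24, adjusted p = 0.672), -0.79 for rosoxacin against WTCPM (adjusted p = 0.124) and -0.53 for dexamethasone against WTCPM (adjusted p = 0.911), by limma. Il17a, Il17f and Il22, cytokines known to raise these ligands in epithelium, are listed at 0 in every mouse. Il6 averaged 0.268 FPKM in rosoxacin mice, which ranged between 0.0533 and 0.677, and 0.0873 in control mice. It averaged 0.0164 in dexamethasone and 0.00987 in WTCPM mice, with 3 mice of each group listed at 0. The overall mean of Il6 was under the filter, so it was not tested.

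Saa1, an acute-phase gene that NF-kB drives, was the 1 tested gene of 21 NF-kB regulators and targets and is among the genes most like Cxcl5. It averaged 0.231 ± 0.0523 FPKM in rosoxacin, 0.510 ± 0.391 in dexamethasone, 0.286 ± 0.0827 in WTCPM and 0.0204 ± 0.0134 in control mice. Saa1 was higher in rosoxacin than in control mice (log2 change 1.45, SE 0.39, adjusted p = 0.0496), and its changes of 1.66 for WTCPM against control (adjusted p = 0.265) and 2.07 for dexamethasone against control (adjusted p = 0.0734) did not pass, by limma. The call for rosoxacin held in 7 of 17 other settings and in 2 of 16 fits without 1 mouse. Saa1 has near-identical relatives whose reads could have been shared, so its level is uncertain. None of 12 glucocorticoid response genes has an own identifier, so the action of dexamethasone in these lungs could not be checked on them.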

How the data were processed

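Lung RNA of 16 mice was sequenced on 2 lanes each, paired-end on an Illumina HiSeq system. HISAT2 2.2.1, StringTie 2.1.5, SAMtools 1.12, FastQC and R 4.0.4 are named, with the build mm10, per the submitters' processing notes. The authors deposited FPKM per transcript, and 32 single-library tables are identical to the joint table. Annotation and tool settings: not given in the sources used here.

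FPKM of transcripts were summed per gene identifier and lanes averaged per mouse. Of 26305 annotated genes 25424 received a GENCODE M21 symbol. On log2(FPKM + 0.1), limma 3.58.1 (R 4.3.3; lmFit, contrasts.fit, eBayes with trend) was fitted to the 2749 annotated genes averaging 0.1 FPKM or more, with all 4 groups together and 6 comparisons, and genes passed at a Benjamini-Hochberg adjusted p under 0.05. The procedure was tested on simulated data. Pair correlations used 100000 permutations. Genes were named by membership, by fixed lists of chemokines, receptors, inducing cytokines, NF-kB genes and cell type markers, and by the 5 highest correlations. One gene was left out of the receptor list and is not reported here. The 4 ligands and the lists were chosen with earlier results of these data known. Alternatives are in the closing section. Figures used matplotlib 3.10.9 in Python 3.11.15.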

Additional observations from a re-analysis of the deposited data

Results flagged for a closer look

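Cxcl2 in control mouse 1 stood apart from its group. It had 0.340 FPKM, and the gap to the next control mouse was 0.849 of the whole range of the 4 control mice, above the 95% critical value of Dixon's test for 4 values. Both lanes were higher in this mouse, with 0.269 and 0.411 FPKM. The test was applied to 16 groups of 4 mice, and chance marks about 1 in 20.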

How the results depend on the processing

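Across 17 alternative settings and 16 fits that left out 1 mouse, none of the 4 ligands passed the adjusted threshold in any of the 6 comparisons, and the smallest adjusted p by limma was 0.0742, for Cxcl5 in rosoxacin against control. Of the settings 7 (other or no filter, no trend, 2 groups alone, assembled loci and the replicate block) left every log2 change as it was, and under the other 10 settings 22 of 240 log2 changes had another sign than the value reported. Cxcl5 has no value with a minimum mean of 0.2 FPKM. With TPM scaling these were Cxcl5 (-0.05) and Ccl20 (-0.29) in rosoxacin against WTCPM, Cxcl1 in dexamethasone against WTCPM (-0.01), Cxcl1 in rosoxacin against control (-0.14) and Cxcl2 in rosoxacin against dexamethasone (-0.07). With quantile normalisation they were Cxcl5 in dexamethasone against WTCPM (0.02) and Cxcl1 in rosoxacin against control (-0.00). In lane 1 alone they were Ccl20 in rosoxacin against WTCPM (-0.48) and in dexamethasone against control (-0.24), and Cxcl1 (-0.08) and Cxcl5 (0.13) in dexamethasone against WTCPM. In lane 2 alone they were Ccl20 in WTCPM against control (0.14), rosoxacin against control (0.80) and rosoxacin against dexamethasone (0.05). With array quality weights it was Cxcl5 in dexamethasone against WTCPM (0.01). With the library number as a covariate they were Ccl20 in rosoxacin against WTCPM (-0.07) and Cxcl1 in dexamethasone against WTCPM (-0.01). With only the most abundant transcript they were Ccl20 in WTCPM against control (0.83), rosoxacin against control (0.57) and rosoxacin against WTCPM (-0.26), and Cxcl1 in dexamethasone against WTCPM (-0.41) and rosoxacin against dexamethasone (0.28). The cause was not tested. Leaving out 1 mouse of the groups compared turned the sign in 12 of 192 values. The ranges were -0.30 to 0.25 for Ccl20 in rosoxacin against WTCPM, -0.10 to 0.24 for Cxcl1 and -0.25 to 0.25 for Cxcl5 in dexamethasone against WTCPM, -0.11 to 0.36 for Cxcl1 and -0.47 to 0.07 for Ccl20 in rosoxacin against control, and -0.02 to 0.26 for Ccl20 in dexamethasone against control. Beside those given with the results, wider ranges with no turn of sign were -0.29 to -0.05 for Ccl20 in WTCPM against control, -0.39 to -0.04 for Cxcl1 and 0.01 to 0.56 for Cxcl5 in rosoxacin against WTCPM, 0.16 to 0.42 for Ccl20 in dexamethasone against WTCPM, and 0.15 to 0.61 for Cxcl1 in dexamethasone against control. Cxcl2 in WTCPM against control lay between 0.35 and 1.42 under the settings. With median-of-ratios scaling r was 0.60 for Cxcl1 and Cxcl2 and 0.61 for Cxcl2 and Cxcl5, each with an adjusted permutation p of 0.0446.

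Mouse numbers pair no animals in the labels. Same-numbered mice of different groups had deviations correlated between -0.16 and 0.30. The median was 0.03, against 0.00 for mice with other numbers. Of 16 mice, 7 correlated best with a mouse of their own number, and the count that chance gives was not computed. With the number as a replicate block 0 of the 4 ligands were called, and the adjusted p of Cxcl2 in WTCPM against control was 0.215, at a log2 change of 1.09 that such a balanced block cannot move. Annotated genes called numbered 1 in the dust comparison, 15 for rosoxacin against WTCPM, 0 for dexamethasone against WTCPM, 85 for rosoxacin against control, 0 for dexamethasone against control and 103 for rosoxacin against dexamethasone. Without the block these counts were 0, 15, 0, 91, 1 and 117. Over the other settings on annotated genes the count went as high as 270 for rosoxacin against WTCPM, 260 for rosoxacin against control and 310 for rosoxacin against dexamethasone, and as low as 0 for each. Depth limits all 4 ligands, whose dominant transcripts fall to 9.94 steps or fewer in a control mouse.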
